A study of Saccharomyces cerevisiae with 6 samples.

Results

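The genes described here encode the subunits of the protein translocases of yeast mitochondria, 36 of the 6931 loci in the count table. They were chosen by complex membership and not by any value: the TOM complex of the outer membrane without its receptors TOM70 and TOM71 (6 genes), the SAM complex (4), the TIM23 complex (5), its import motor PAM (4), the TIM22 complex (3), the small TIM chaperones (5), the MIA pathway (3), the MIM complex (2), the insertase OXA1 (1) and the inner membrane peptidase IMP (3). All 36 were found by systematic name in the deposited transcript models, each alone in its locus, and all 36 passed the filter on low counts. RNA of Saccharomyces cerevisiae W303, a laboratory strain, was sequenced in 3 groups of 2 libraries. The first group was a wild-type control (WT). The second carried a high-copy 2µ plasmid that expresses PSD1 from the GAL promoter (PSD1 overexpression), and the third carried the same plasmid in a strain deleted for PDR3 (pdr3Δ). The labels list raffinose medium and a 4 h induction with 2% galactose for all 6 samples without saying which of them received it. The labels do not tie the 2 libraries of a group to separate cultures. The p-values therefore reflect only the scatter among these libraries, which may be technical.

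Nearly all mitochondrial proteins are made in the cytosol and enter through these machines. Precursors cross the outer membrane through the Tom40 channel. From there, SAM inserts beta-barrel proteins, small Tim chaperones carry hydrophobic proteins to the TIM22 carrier translocase, Mia40 and Erv1 trap cysteine-rich proteins in the intermembrane space by disulfide bonds, and TIM23 with its Hsp70 motor PAM takes proteins with a presequence into the inner membrane and matrix. PSD1 encodes a phosphatidylserine decarboxylase of the inner membrane whose precursor uses this route, and PDR3 encodes a zinc cluster activator of drug resistance genes.

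Total counts per library ran from 10220872 to 12315448. Levels are given as CPM, counts scaled to library size with TMM factors. The labels were checked on PSD1, PDR3, GAL1 and URA3. PSD1 stood at 1494.8 and 1318.8 CPM for WT, 14465.8 and 16489.0 for PSD1 overexpression and 9369.9 and 9070.9 for pdr3Δ, so its dose differed between the overexpressing groups (edgeR adjusted p = 0.000668). PDR3 had 3 and 9 counts in the pdr3Δ libraries. GAL1, which galactose induces, stood at 42.1 and 18.8 CPM in WT against 6008.5 to 8385.0 CPM in the other 4 libraries. In comparisons with WT, the difference in PSD1 and the difference in galactose response therefore cannot be told apart. GAL1 was also higher for pdr3Δ, at 8385.0 and 8037.8 CPM, than for PSD1 overexpression, where it reached 6399.4 and 6008.5. Against PSD1 overexpression, pdr3Δ thus differed in PDR3, PSD1 dose and GAL1 level together. The part of each in the members' changes was not tested. URA3, a common selection marker in yeast, was at 16646.7 and 17278.6 CPM for WT, 12139.1 and 12784.1 for PSD1 overexpression and 4401.2 and 5842.8 for pdr3Δ. It was highest in WT, for which the labels name no plasmid, and 2.43-fold lower in pdr3Δ than in PSD1 overexpression (edgeR adjusted p = 0.000167). The labels do not give the marker of the plasmid, and the part of this difference in the members' values was not tested. Changes are log2 fold changes ± SE from edgeR's quasi-likelihood test (n = 2 per group), called at a Benjamini-Hochberg adjusted p under 0.05 over 6171 tested loci.

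In PSD1 overexpression against WT, 10 of the 36 translocase genes were higher and 6 lower. MIA40, the import receptor and disulfide donor of the intermembrane space, rose 1.67-fold, and it was the only member past an absolute log2 of 0.5. Of all loci, 11.0% were called higher and 8.95% called lower with a change of at least that size. The other members that rose were TIM13 (log2 0.49), SOM1 (0.46), MIM1 (0.44), ERV1 (0.35), TIM8 (0.33), TOM5 (0.27), PAM17 (0.26), MDM10 (0.25) and SAM37 (0.22). Those that fell were TIM44 (-0.38), TIM18 (-0.34), TIM23 (-0.32), OXA1 (-0.22), PAM18 (-0.18) and TOM20 (-0.14). Over all tested loci 55.8% were called in this comparison, 27.9% higher and 27.9% lower, against 44.4% of the members, so the members' share did not exceed the background. The median log2 fold change was 0.01 for the members and 0.01 for all loci, and the median absolute change was 0.13 against 0.24. The members' summed level moved little, with 6188.6 and 6146.7 CPM for WT, 6339.3 and 6370.3 for PSD1 overexpression and 6267.8 and 6210.8 for pdr3Δ.

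In pdr3Δ against PSD1 overexpression, 1 member was higher, TIM10, and 4 were lower, MIA40, HOT13, TIM13 and SOM1. The background was 20.9% of loci called, 11.8% higher and 9.12% lower, against 13.9% of the members. Each of these 5 calls was lost when any of the 4 libraries compared was left out. In pdr3Δ against WT, 8 members were higher and 5 lower, or 36.1% against a background of 39.1%, of which 19.6% were higher and 19.5% lower. MIA40 was again the only member past 0.5. Of all loci, 6.03% were called higher and 5.15% called lower with a change of at least that size. Both comparisons with WT share the WT libraries, and both comparisons of PSD1 overexpression share its libraries, so the calls are set side by side and not counted as repeats of each other. For 15 of 36 members no comparison gave a call, though TIM21, TIM50 and MGR2 gained one under 1 or 2 alternatives. Among the 15 were the subunit genes TOM22, SAM50, TIM17, TIM50, TIM22 and TIM54.

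**Figure D1:**
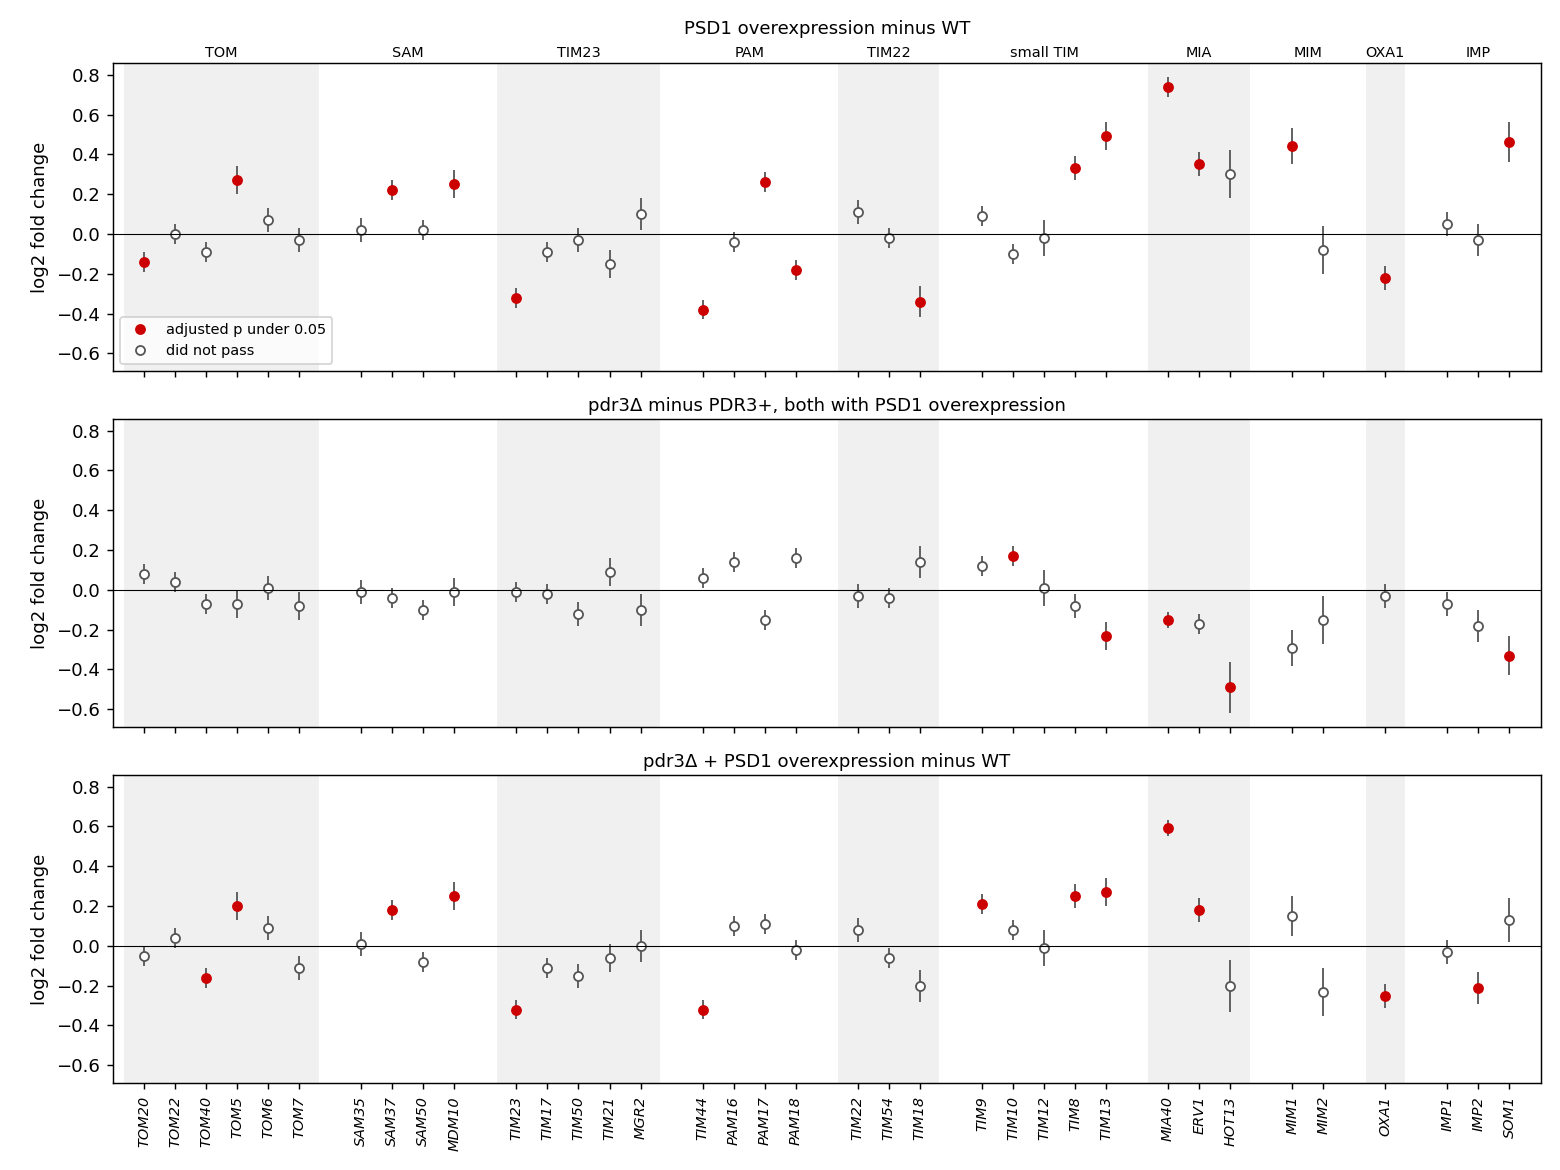
Log2 fold change of each of the 36 translocase genes (y axis) by complex (x axis) in the 3 comparisons. Points are edgeR estimates, bars are ± SE (n = 2 per group), and filled red points passed an adjusted p of 0.05; MIA40 stands highest in the top panel at 0.74, and HOT13 lowest in the middle panel at -0.49.

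**Figure D2:**
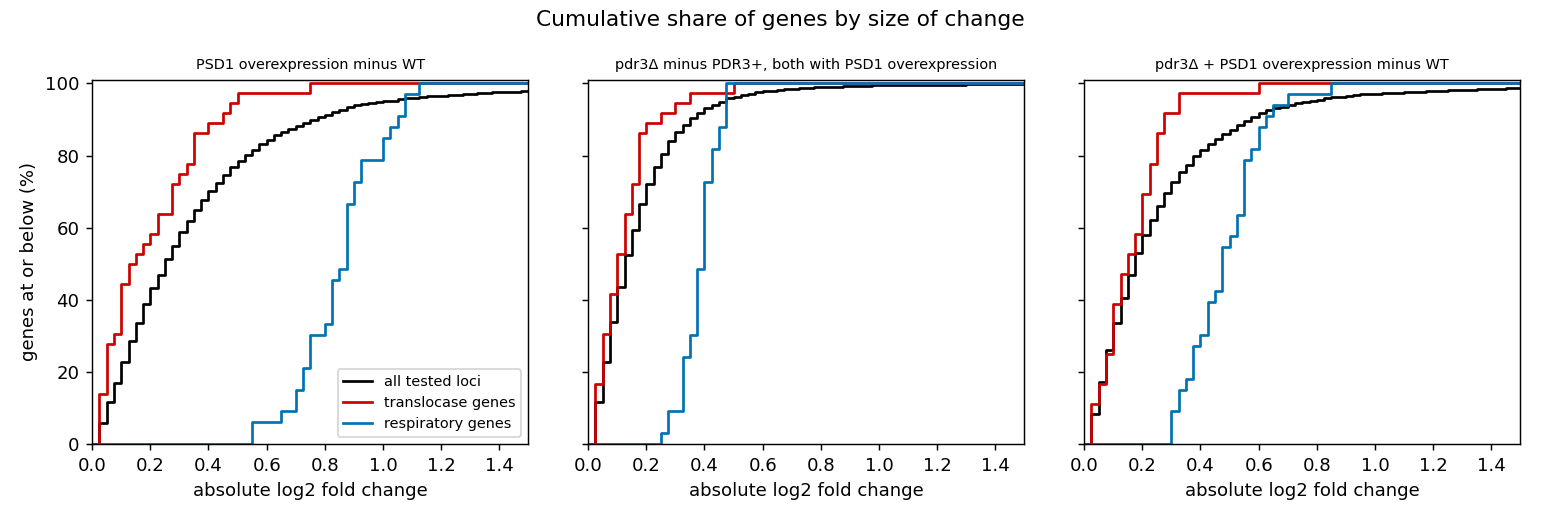
Cumulative share of genes (y axis, percent) at or below each absolute log2 fold change (x axis) for the 36 translocase genes, 33 respiratory genes and all 6171 tested loci. In PSD1 overexpression against WT the translocase curve lies left of the curve for all loci, with medians of 0.13 and 0.24, and the respiratory curve lies to the right, with a median of 0.85.

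The respiratory chain and ATP synthase genes are shown there for scale. All 33 listed were called lower in PSD1 overexpression against WT, beside 27.9% of all tested loci. Their median log2 was -0.85, where the members had a median of 0.01. In pdr3Δ against PSD1 overexpression all 33 were called higher, beside 11.8% of all loci. Their median there was 0.38, and that of the members -0.04. In pdr3Δ against WT all 33 were called lower, beside 19.5% of all loci, with a median of -0.45 against -0.01 for the members. The difference between the lists was not tested.

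**Figure D3:**
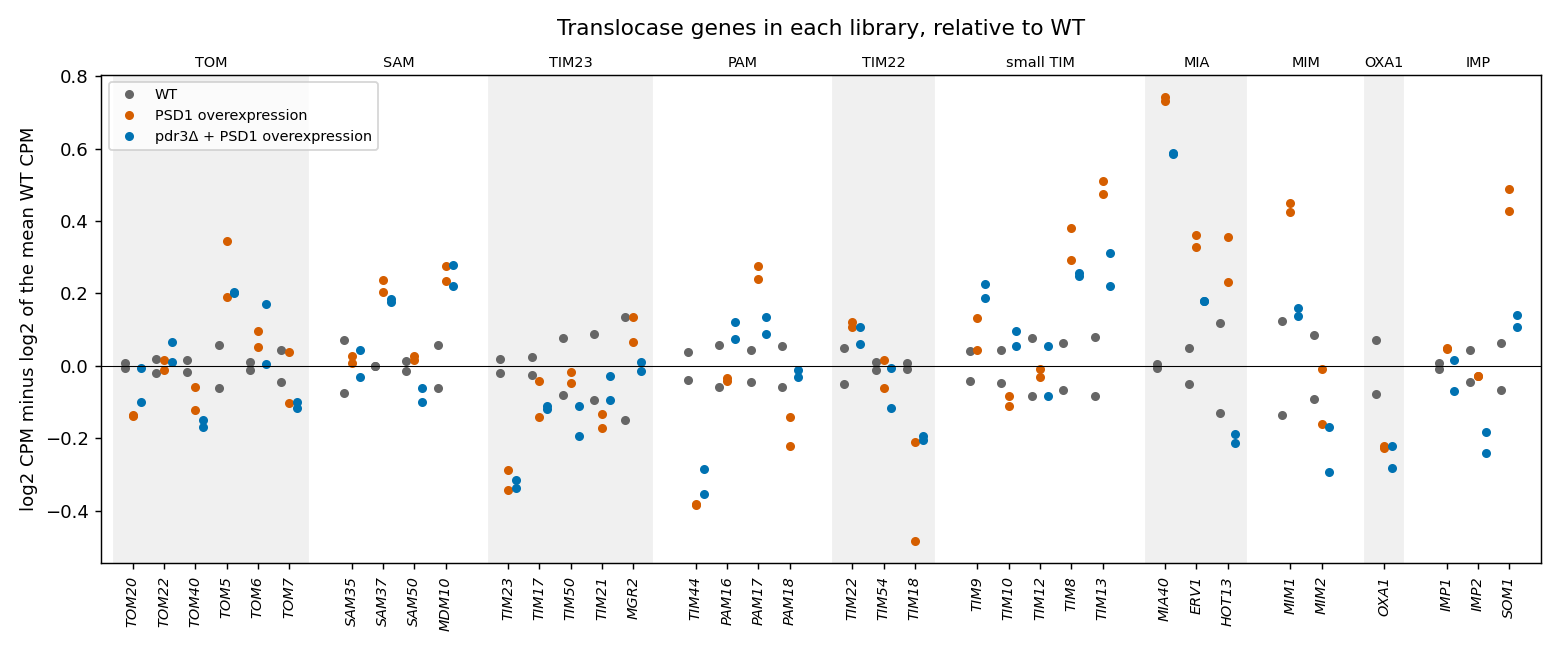
Level of each translocase gene in each of the 6 libraries (y axis, log2 CPM minus the log2 of the mean WT CPM), by complex (x axis). Each point is a library; for MIA40, ERV1, TIM13 and MIM1 both PSD1 overexpression libraries lie above both WT libraries, and for TIM23 and TIM44 below them.

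Of the 3 MIA genes 2 rose in PSD1 overexpression against WT, and 1 of them, MIA40, had the largest change of the 36 members. MIA40 (YKL195W, chromosome XI, 75821 to 77032, forward strand, R64 build, 1 exon) had 599.9 and 604.1 CPM for WT, 1007.0 and 998.5 for PSD1 overexpression and 902.5 and 904.1 for pdr3Δ. The 3 groups did not overlap, with pdr3Δ between the others and nearer to PSD1 overexpression. The log2 change was 0.74 ± 0.05 in PSD1 overexpression against WT (edgeR adjusted p = 6.01e-07) and 0.59 ± 0.04 in pdr3Δ against WT (adjusted p = 6.51e-06), and both calls held without any single library. In pdr3Δ against PSD1 overexpression MIA40 fell by 0.15 ± 0.04 (adjusted p = 0.0398), a call that was lost without any of the 4 libraries (adjusted p = 0.139 to 0.156). ERV1 (YGR029W, chromosome VII, 543553 to 544205, forward strand, 2 exons), the sulfhydryl oxidase that reoxidizes Mia40, had 80.5 and 75.2 CPM for WT, 100 and 97.8 for PSD1 overexpression and 88.1 and 88.1 for pdr3Δ. Its groups did not overlap either, in the same order. ERV1 rose by 0.35 ± 0.06 in PSD1 overexpression against WT (edgeR adjusted p = 0.000447). It was also higher in pdr3Δ than in WT (0.18 ± 0.06, adjusted p = 0.0282), which was lost without WT library 2 (0.137) or without pdr3Δ library 1 (0.102) or 2 (0.0996) and with DESeq2. HOT13, a zinc-binding helper that keeps Mia40 open to oxidation, had the lowest CPM of the members in WT, with counts of 141 and 179 for WT, 180 and 176 for PSD1 overexpression and 143 and 133 for pdr3Δ. Its PSD1 overexpression libraries were the highest by CPM, at 15.8 and 17.2, and its pdr3Δ libraries the lowest, at 11.8 and 11.6. HOT13 did not pass in PSD1 overexpression against WT (0.30 ± 0.12, adjusted p = 0.0661), though it did under 3 of 17 alternatives, and fell by 0.49 ± 0.13 in pdr3Δ against PSD1 overexpression (adjusted p = 0.0232, or 0.069 to 0.148 without single libraries). The size of an FPKM ratio between genes depends on that scale, described further on, so such ratios are compared between libraries alone. The ratio of MIA40 to ERV1 FPKM was 2.54 and 2.75 for WT, 3.40 and 3.39 for PSD1 overexpression and 3.44 and 3.44 for pdr3Δ. The WT libraries had the lowest ratios, and this difference between the genes was not tested.

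**Figure D4:**
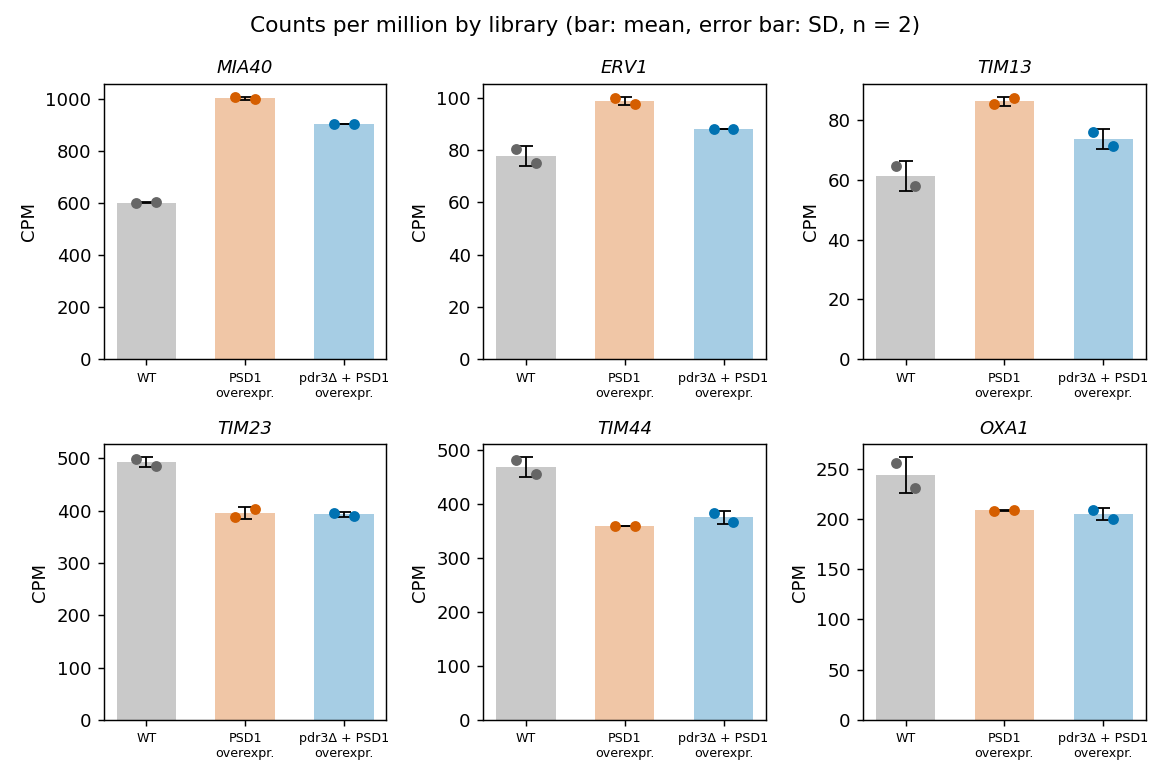
CPM (y axis) of 6 translocase genes in WT, PSD1 overexpression and pdr3Δ with PSD1 overexpression (x axis). Bars are means, error bars are SD (n = 2) and points are libraries; MIA40, ERV1 and TIM13 are lowest in WT, and TIM23, TIM44 and OXA1 are highest in WT.

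The windows around the start codon are shown for the members with the 3 largest rises in PSD1 overexpression, MIA40, TIM13 and SOM1, and for the member with the largest fall, TIM44. Each window runs from 250 bases before the start codon to 50 bases from it on, read 5′ to 3′ on the strand of the gene from the RefSeq R64 genome. Capitals mark matches to any of the motifs searched on both strands.
MIA40 (chrXI:75571-75870, forward strand): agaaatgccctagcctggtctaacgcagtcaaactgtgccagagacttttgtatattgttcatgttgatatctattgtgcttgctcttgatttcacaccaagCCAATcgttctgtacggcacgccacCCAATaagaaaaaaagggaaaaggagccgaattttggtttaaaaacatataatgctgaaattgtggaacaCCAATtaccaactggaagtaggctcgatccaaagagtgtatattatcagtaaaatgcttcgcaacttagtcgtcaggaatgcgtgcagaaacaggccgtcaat
TIM13 (chrVII:858037-858336, forward strand): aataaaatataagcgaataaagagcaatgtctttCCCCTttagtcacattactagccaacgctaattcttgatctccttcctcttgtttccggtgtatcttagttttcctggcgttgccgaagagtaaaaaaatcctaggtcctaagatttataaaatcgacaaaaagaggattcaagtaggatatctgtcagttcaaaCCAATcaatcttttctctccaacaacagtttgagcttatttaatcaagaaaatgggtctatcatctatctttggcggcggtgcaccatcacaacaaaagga
SOM1 (chrV:42575-42874, reverse strand): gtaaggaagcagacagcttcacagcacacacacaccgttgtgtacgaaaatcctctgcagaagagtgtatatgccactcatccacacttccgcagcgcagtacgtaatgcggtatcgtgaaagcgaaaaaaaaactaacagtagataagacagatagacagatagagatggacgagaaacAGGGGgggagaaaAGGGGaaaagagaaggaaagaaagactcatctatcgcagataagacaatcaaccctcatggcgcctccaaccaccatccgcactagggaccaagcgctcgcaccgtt
TIM44 (chrIX:310915-311214, forward strand): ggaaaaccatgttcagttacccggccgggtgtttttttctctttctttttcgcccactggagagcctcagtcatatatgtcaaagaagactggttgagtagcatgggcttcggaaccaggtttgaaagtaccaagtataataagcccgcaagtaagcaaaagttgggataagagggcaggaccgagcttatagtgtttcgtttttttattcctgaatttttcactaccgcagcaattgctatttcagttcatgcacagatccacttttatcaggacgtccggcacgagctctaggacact
Searched were CCAAT, the box of the Hap complex, AGGGG, the stress response element of Msn2 and Msn4, TCCGCGGA and TCCGTGGA, sites of Pdr1 and Pdr3, a heat shock element made of 3 alternating GAA and TTC units, and GGTGGCAAA, the site of the proteasome regulator Rpn4. No match overlapped another in these windows. MIA40 has 3 CCAAT boxes, at 148, 123 and 53 bases before the start codon. TIM13 has CCCCT at 216 and CCAAT at 51 bases before it. SOM1 has 2 stress response elements, and the TIM44 window holds none of the motifs. Of 36 member windows, 17 held CCAAT, or 47.2%, against 44.3% of the 7063 windows of all gene models. For the stress response element the shares were 16.7% of members (6 of 36) and 20.8% of all windows. The 6 members with that element were MIM1, SOM1 and TIM13, which rose in PSD1 overexpression against WT, and SAM35, TIM10 and TIM12, which did not pass. Of the 17 members with CCAAT, 5 rose, 0 fell and 12 did not pass. Of the 19 without it, 5 rose, 6 fell and 8 did not pass. The only AGGGG match of TIM12 and the only CCAAT match of HOT13 lie after the start codon, in the coding sequence. Over all tested loci 27.9% were called higher and 27.9% lower, but those loci were not split by motif. A link between either motif and the calls was not tested. No member window held TCCGCGGA, the heat shock element or the Rpn4 site, which were in 0.198%, 0.736% and 1.1% of all windows. TCCGTGGA, in 0.396% of all windows, was found in 1 member window, that of MIM2, read as TCCACGGA on the strand of the gene. These matches are letters in the reference strain's sequence and were not tested as binding sites.

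Among the small TIM genes TIM8 and TIM13 rose in PSD1 overexpression against WT, and TIM9, TIM10 and TIM12 did not pass. Tim8 and Tim13 form one hexameric chaperone of the intermembrane space, and Tim9 and Tim10 another. The difference between these pairs was not tested. TIM13 (YGR181W, chromosome VII, 858287 to 858604, forward strand) had 64.8 and 57.9 CPM for WT, 85.3 and 87.4 for PSD1 overexpression and 76.1 and 71.5 for pdr3Δ. WT was lowest and PSD1 overexpression highest, with no overlap between the groups. TIM13 rose by 0.49 ± 0.07 against WT (edgeR adjusted p = 0.000169). It fell by 0.23 ± 0.07 in pdr3Δ against PSD1 overexpression (adjusted p = 0.0402), which was lost without any of the 4 libraries (0.062 to 0.21). TIM8, its partner, had 72.8 and 79.7 CPM for WT, 93.3 and 99.2 for PSD1 overexpression and 91.1 and 90.5 for pdr3Δ. Both overexpressing groups lay above WT, and TIM8 rose by 0.33 ± 0.06 in PSD1 overexpression (adjusted p = 0.00116). In pdr3Δ against WT both partners were higher, TIM13 by 0.27 ± 0.07 (adjusted p = 0.0114) and TIM8 by 0.25 ± 0.06 (adjusted p = 0.00937). The TIM13 call was lost without WT library 2 (0.0652) or pdr3Δ library 1 (0.0778), and the TIM8 call without WT library 1 (0.0569). TIM10 and TIM9 did not pass in PSD1 overexpression against WT, at -0.10 ± 0.05 and 0.09 ± 0.05. TIM10, the most abundant small TIM transcript, had 401.2 and 427.3 CPM for WT, 391.4 and 383.9 for PSD1 overexpression and 443.1 and 430.5 for pdr3Δ. It was higher in pdr3Δ than in PSD1 overexpression by 0.17 ± 0.05 (adjusted p = 0.0346, or 0.0813 to 0.204 without single libraries). TIM9 was higher in pdr3Δ than in WT by 0.21 ± 0.05 (adjusted p = 0.0107), a call lost without WT library 1 (0.0607) or pdr3Δ library 2 (0.0602) and in both limma fits of FPKM (0.0522 each). TIM12, the small Tim that docks on TIM22, stayed between 32.3 and 36.1 CPM in all 6 libraries and did not pass in any comparison. TIM9 overlaps an open reading frame, YEL020C-B, on the opposite strand over 170 bp and TIM13 overlaps YGR182C over 54 bp. The peptidase gene IMP1 also overlaps an opposite-strand frame, YMR151W, over 23 bp. No strand setting of the counting is stated, so reads of those overlaps cannot be assigned to a strand.

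The TIM22 complex, which inserts carrier proteins into the inner membrane, changed in 1 of 3 genes. The channel gene TIM22 (YDL217C, chromosome IV, 67983 to 68606, reverse strand) had 69.0 and 64.4 CPM for WT, 71.9 and 72.5 for PSD1 overexpression and 69.5 and 71.9 for pdr3Δ. These values lie close together, and TIM22 did not pass in any comparison, at 0.11 ± 0.06 in PSD1 overexpression against WT (edgeR adjusted p = 0.128, 95% interval -0.02 to 0.25). TIM54, whose protein faces the intermembrane space, stood at -0.02 ± 0.05 in the same comparison. TIM18, a membrane subunit related to a subunit of succinate dehydrogenase, had 60.7 and 60.1 CPM for WT, 43.2 and 52.2 for PSD1 overexpression and 52.4 and 52.8 for pdr3Δ. Its WT libraries were the highest, and PSD1 overexpression library 1 lay below the other 5. TIM18 fell by 0.34 ± 0.08 in PSD1 overexpression (adjusted p = 0.00536), which was just lost without PSD1 overexpression library 1 (0.0504). It did not pass in pdr3Δ against WT (-0.20 ± 0.08, adjusted p = 0.0756), though it did under 3 of 17 alternatives.

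In the TIM23 complex the channel gene TIM23 fell, and the other 4 genes did not pass. TIM23 (YNR017W, chromosome XIV, 662913 to 663581, forward strand) had 499.0 and 485.8 CPM for WT, 388.0 and 403.5 for PSD1 overexpression and 396.2 and 390.0 for pdr3Δ. Both overexpressing groups lay below WT and overlapped each other. TIM23 fell by 0.32 ± 0.05 in PSD1 overexpression against WT (edgeR adjusted p = 0.000246) and by 0.32 ± 0.05 in pdr3Δ against WT (adjusted p = 0.000338). Between the overexpressing groups the difference was -0.01 ± 0.05, with a 95% interval of -0.11 to 0.09. TIM17, the second subunit of the channel, stood at -0.09 ± 0.05 in PSD1 overexpression against WT, the presequence receptor gene TIM50 at -0.03 ± 0.06, TIM21, which links TIM23 to TOM and the respiratory chain, at -0.15 ± 0.07, and MGR2, the lateral gate, at 0.10 ± 0.08. None of these 4 passed in any comparison, but 3 of them did under an alternative. TIM21 passed in PSD1 overexpression against WT without WT library 1 (edgeR adjusted p = 0.00834), and MGR2 without WT library 1 (0.00762). TIM50 passed in pdr3Δ against WT without WT library 2 (0.0117). The difference between TIM23 and its partners was not tested. The ratio of TIM23 to TIM17 FPKM was 1.24 and 1.20 for WT, 0.981 and 1.10 for PSD1 overexpression and 1.04 and 1.06 for pdr3Δ, with the WT libraries highest.

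The motor genes moved in both directions. TIM44 (YIL022W, chromosome IX, 311165 to 312460, forward strand), which anchors the motor's Hsp70 to the channel, had 481.1 and 455.4 CPM for WT, 359.8 and 358.8 for PSD1 overexpression and 384.3 and 366.8 for pdr3Δ. WT was highest in each case. TIM44 fell by 0.38 ± 0.05 in PSD1 overexpression (edgeR adjusted p = 0.000103) and by 0.32 ± 0.05 in pdr3Δ against WT (adjusted p = 0.000594). PAM17, which helps to organise the motor, had 169.3 and 180.1 CPM for WT, 206.2 and 211.3 for PSD1 overexpression and 191.7 and 185.6 for pdr3Δ. It rose by 0.26 ± 0.05 in PSD1 overexpression (adjusted p = 0.00166) and did not pass in pdr3Δ against WT (0.11 ± 0.05, adjusted p = 0.111). PAM18, the J protein that stimulates the Hsp70, had 173.8 and 187.9 CPM for WT, 155.1 and 163.9 for PSD1 overexpression and 177.2 and 179.4 for pdr3Δ. PSD1 overexpression was lowest, by 0.18 ± 0.05 against WT (adjusted p = 0.0171), and this call was lost without WT library 2 (0.107) or PSD1 overexpression library 1 (0.135). PAM16, its regulator, stood at -0.04 ± 0.05 and did not pass in any comparison. SSC1, the matrix Hsp70 that does the pulling, is not a member. It had 2753.2 and 2390.6 CPM for WT, 4428.0 and 4656.8 for PSD1 overexpression and 3569.8 and 3358.0 for pdr3Δ. SSC1 rose by 0.82 ± 0.08 in PSD1 overexpression (adjusted p = 1.01e-05), so the ratio of SSC1 to TIM44 FPKM went from 4.34 and 4.00 for WT to 9.33 and 9.69 for PSD1 overexpression and 7.11 and 6.95 for pdr3Δ. The groups did not overlap in this ratio.

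In the TOM complex 1 of 6 genes rose and 1 fell in PSD1 overexpression against WT. TOM40 (YMR203W, chromosome XIII, 668492 to 669655, forward strand), the channel, had 588.5 and 574.6 CPM for WT, 534.2 and 558.8 for PSD1 overexpression and 524.8 and 517.8 for pdr3Δ. The groups did not overlap, but the steps were small, with -0.09 ± 0.05 in PSD1 overexpression against WT (edgeR adjusted p = 0.129). In pdr3Δ TOM40 was lower than in WT by a log2 of -0.16 ± 0.05 (adjusted p = 0.0225). That call was lost without WT library 1 (0.0841) or pdr3Δ library 1 (0.0669) or 2 (0.103). TOM20, a receptor for presequences, fell by 0.14 ± 0.05 in PSD1 overexpression, the smallest called change among the members (adjusted p = 0.0355, or 0.0725 to 0.139 without single libraries). It was also lost with library totals alone and with DESeq2. TOM5, a small subunit that passes precursors on to the channel, rose by 0.27 ± 0.07 (adjusted p = 0.00808), which was lost without PSD1 overexpression library 1 (0.0872). It was also higher in pdr3Δ than in WT (0.20 ± 0.07, adjusted p = 0.0446), lost under 7 of 17 alternatives: without WT library 1 (0.19) or pdr3Δ library 1 (0.128) or 2 (0.123), with RLE size factors (0.0515), with DESeq2 (0.169) and in both limma fits of FPKM (0.104 and 0.106). TOM22, the central receptor, and the small subunit genes TOM6 and TOM7 lay between -0.03 and 0.07 in PSD1 overexpression against WT and did not pass in any comparison. For TOM22 the 95% interval of that change was -0.10 to 0.11.

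Of the 4 SAM genes 2 rose. SAM50 (YNL026W, chromosome XIV, 581920 to 583374, forward strand), the channel that inserts beta-barrels, had 118.6 and 121.0 CPM for WT, 121.1 and 122.1 for PSD1 overexpression and 111.8 and 114.8 for pdr3Δ. All 6 values lie between 111.8 and 122.1 CPM, and SAM50 did not pass in any comparison (0.02 ± 0.05 in PSD1 overexpression against WT, 95% interval -0.09 to 0.13). SAM35, which binds the sorting signal of beta-barrels, stood at 0.02 ± 0.06 and did not pass either. SAM37, which helps to release folded barrels, rose from 79.6 and 79.7 CPM in WT to 91.7 and 93.8 CPM in PSD1 overexpression (0.22 ± 0.05, edgeR adjusted p = 0.00456). In pdr3Δ it had 90.5 and 90.0 CPM (0.18 ± 0.05 against WT, adjusted p = 0.0182), a call lost without WT library 1 (0.0536) or pdr3Δ library 1 (0.0873) or 2 (0.0714) and with DESeq2. MDM10, a barrel protein shared with the contact site between mitochondria and endoplasmic reticulum, rose by 0.25 ± 0.07 in PSD1 overexpression (adjusted p = 0.00933) and by 0.25 ± 0.07 in pdr3Δ (adjusted p = 0.0148). The first call was lost without WT library 1 (0.0578) or PSD1 overexpression library 2 (0.0549), and the second without WT library 1 (0.0858) or pdr3Δ library 2 (0.0925). DESeq2 called neither (0.0589 and 0.0982).

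The MIM complex, which inserts helical proteins into the outer membrane, has 2 genes of low counts. MIM1 had 31.8 and 26.6 CPM for WT, 39.9 and 39.2 for PSD1 overexpression and 32.6 and 32.1 for pdr3Δ. PSD1 overexpression was highest, and MIM1 rose by 0.44 ± 0.09 against WT (edgeR adjusted p = 0.00275). In pdr3Δ against PSD1 overexpression it just missed the threshold (-0.29 ± 0.09, adjusted p = 0.0522) and passed under 6 of 17 alternatives. MIM2 stood at -0.08 ± 0.12 in PSD1 overexpression against WT and did not pass in any comparison.

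At the inner membrane, OXA1 (YER154W, chromosome V, 475020 to 476228, forward strand), the insertase for proteins made inside mitochondria and for some imported ones, had 256.3 and 231.2 CPM for WT, 208.2 and 209.1 for PSD1 overexpression and 209.3 and 200.6 for pdr3Δ. WT was highest. OXA1 fell by 0.22 ± 0.06 in PSD1 overexpression (edgeR adjusted p = 0.00728, lost without WT library 1 at 0.0528) and by 0.25 ± 0.06 in pdr3Δ against WT (adjusted p = 0.00605). The peptidase genes IMP1 and IMP2, which remove sorting signals in the intermembrane space, stood at 0.05 ± 0.06 and -0.03 ± 0.08 in PSD1 overexpression and did not pass. IMP2 was at the threshold in pdr3Δ against WT (-0.21 ± 0.08), a call lost under 10 of 17 alternatives. SOM1, the third peptidase subunit, had 16.3 and 14.9 CPM for WT, 21.0 and 21.9 for PSD1 overexpression and 17.2 and 16.8 for pdr3Δ. PSD1 overexpression was highest with no overlap, at 0.46 ± 0.10 against WT (adjusted p = 0.00363). In pdr3Δ against PSD1 overexpression SOM1 fell by 0.33 ± 0.10 (adjusted p = 0.045, or 0.123 to 0.195 without single libraries).

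Counted by complex in PSD1 overexpression against WT, TOM and PAM held calls in both directions. SAM, the small TIMs and MIA held 2 higher calls each and no lower call. MIM and IMP held 1 higher call each, and TIM23, TIM22 and OXA1 held 1 lower call each. Where a complex has 1 call, a single direction is given in advance and describes no pattern. In PSD1 overexpression against WT the median log2 was 0.35 for MIA, 0.18 for MIM, 0.12 for SAM, 0.09 for the small TIMs, 0.05 for IMP, -0.01 for TOM, -0.02 for TIM22, -0.09 for TIM23, -0.11 for PAM and -0.22 for the single gene OXA1, beside 0.01 for all loci. The summed CPM of the MIA genes was 692.6 and 693.8 for WT, 1122.9 and 1113.6 for PSD1 overexpression and 1002.4 and 1003.8 for pdr3Δ, most of it MIA40. For the TIM23 genes it was 1274.7 and 1225.4 for WT, 1121.1 and 1138.0 for PSD1 overexpression and 1105.2 and 1087.3 for pdr3Δ. With 1 to 6 genes per machine these medians are a description and were not tested against each other. The called genes also differed in exon length, with a median of 456 bp (153 to 1482) for the 10 that rose and 624 bp (507 to 1296) for the 6 that fell, beside 468 bp for the 20 that did not pass. The part of length in these calls was not tested.

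Levels between genes were compared per length on 2 scales, since the choice changes the order. On the FPKM scale, as deposited, TOM5 was the highest member in WT (4776.9 on average), before TIM10 (4563.6), TOM6 (4179.4) and TOM7 (3400.7). On the scale of CPM per kilobase of exon, TOM5 ranked 11 of 36 (386.3) and the highest were TIM10 (1468.9), TIM23 (736.0), TOM6 (730.1) and TIM9 (693.2). The ratio of FPKM to CPM per kilobase was 12.4 for TOM5, whose exon is 153 bp long, and 0.849 for TIM44, at 1296 bp. TIM10 was the highest or second highest member on both scales, and MDM10 was the lowest on both (36.9 FPKM and 30.3 CPM per kilobase). Within the motor, TIM44 was lowest of 4 by FPKM and highest of 4 by CPM per kilobase. Within TOM, the channel TOM40 ranked 6 of 6 by FPKM and 4 of 6 by CPM per kilobase, so no order of the small against the large subunits was read from these levels.

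**Figure D5:**
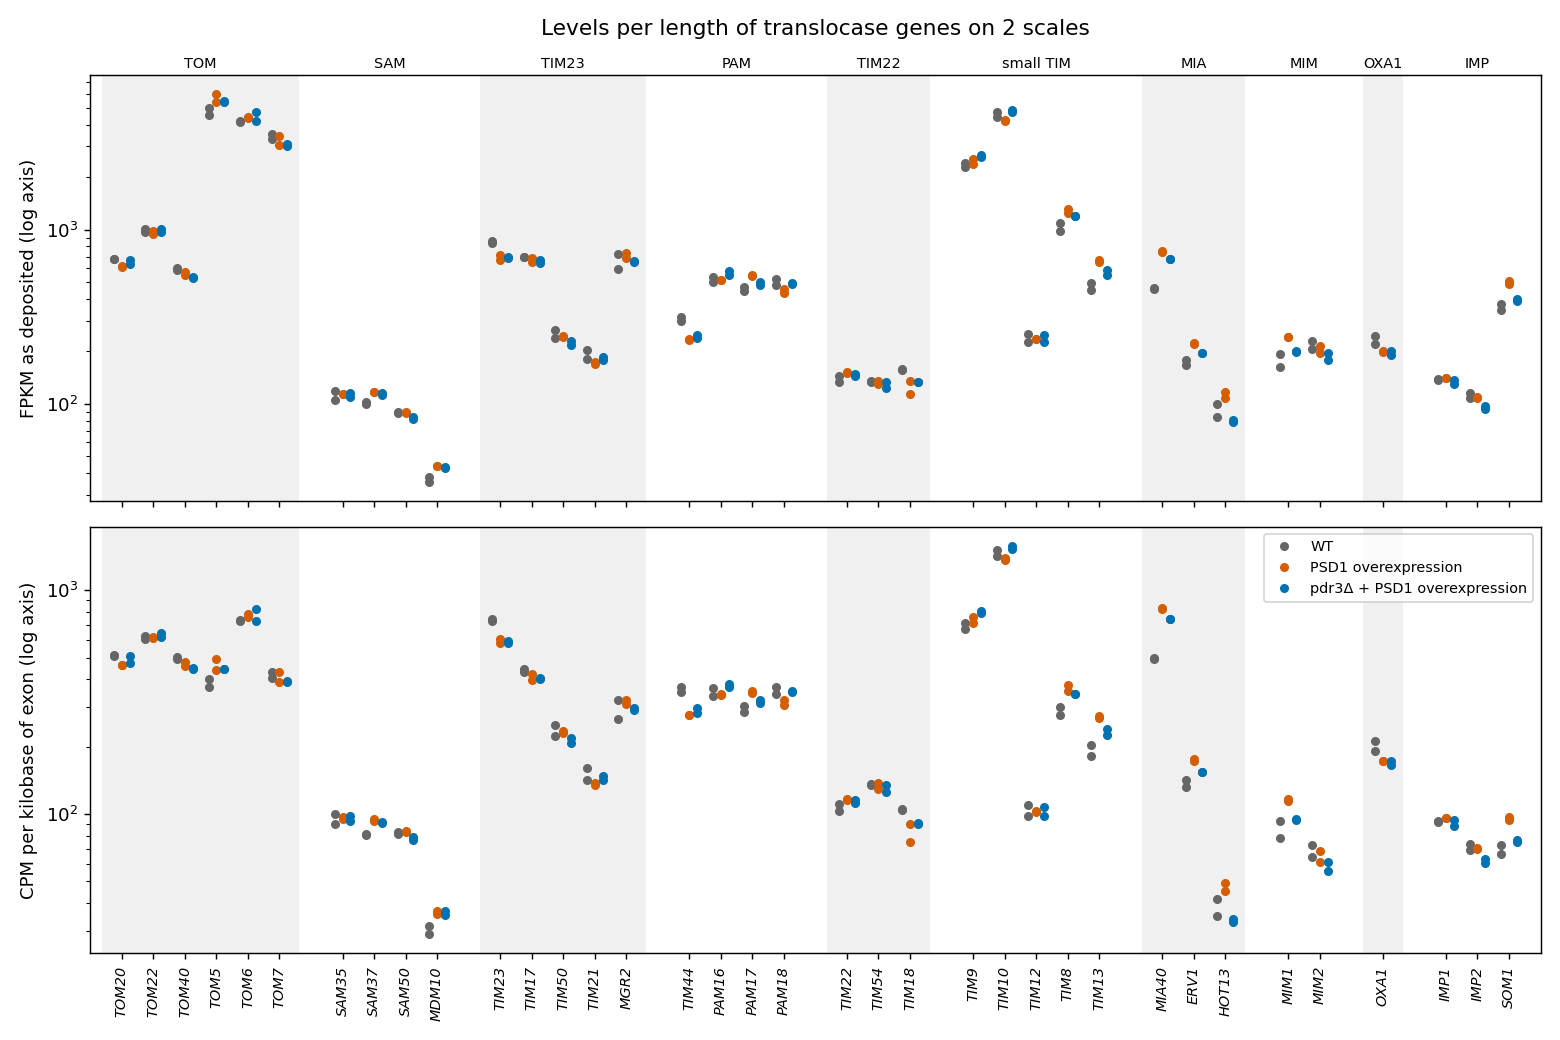
Level per length of each translocase gene in each of the 6 libraries, by complex (x axis), as deposited FPKM (top, log axis) and as CPM per kilobase of exon (bottom, log axis). Each point is a library; TOM5, TOM6 and TOM7 lie above the other TOM genes on the upper scale, and on the lower scale TOM5 is the lowest TOM gene in WT.

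Of 15 further genes of the import pathway that are not members, 4 were higher and 4 lower in PSD1 overexpression against WT. That is 53.3% of them, against 55.8% of all tested loci. YDJ1, a cytosolic J protein that brings precursors to the outer membrane, was at 831.5 and 875.9 CPM for WT, 1466.6 and 1421.4 for PSD1 overexpression and 1296.6 and 1305.7 for pdr3Δ. Its groups did not overlap, and it rose in PSD1 overexpression against WT by 0.76 ± 0.05 (edgeR adjusted p = 1.01e-06), as SSC1 did above. OCT1, which trims presequences in the matrix, was at 121.0 and 125.9 CPM for WT, 87.7 and 86.3 for PSD1 overexpression and 97.7 and 94.7 for pdr3Δ. It was highest in WT and fell in PSD1 overexpression by 0.50 ± 0.05 (adjusted p = 2.04e-05). MAS2 and MAS1 are the subunit genes of the main matrix processing peptidase. MAS2 was at 356.0 and 350.6 CPM for WT, 272.3 and 296.9 for PSD1 overexpression and 292.5 and 272.1 for pdr3Δ. It was called lower in both comparisons with WT, and both calls were kept under all 17 alternatives that refit the data. MAS1 stood at 0.04 ± 0.05 in PSD1 overexpression against WT (edgeR adjusted p = 0.504). The difference between these genes was not tested. The receptor gene TOM70 fell by 0.23 ± 0.06 (adjusted p = 0.0099), a call lost without WT library 1 (0.0566) or PSD1 overexpression library 1 (0.0937). In pdr3Δ against PSD1 overexpression, SSC1 alone of the 15 passed, with a fall of 0.39 ± 0.08 (adjusted p = 0.00718) that was lost without PSD1 overexpression library 2 (0.0797). The share called there was 6.67% of the 15, against 20.9% of all loci. In pdr3Δ against WT 3 of the 15 were higher and 4 lower, or 46.7% against 39.1% of all loci.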

How the data were processed

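RNA from 6 yeast samples was extracted with an RNeasy kit and made into TruSeq libraries, per the labels' protocols. The submitters' processing notes name, without role or order, the sacCer3 (R64) genome, Cuffdiff 2.2.0, Cufflinks 2.2.0, TopHat2 2.0.9, Bowtie2 2.1.0 and SAMtools 0.1.18. Neither the counter nor its strand setting is stated there. The authors deposited whole-number counts per locus and FPKM per locus, 1 column per sample, and merged transcript models, of which 99.68% of shared genes had the start and end of the R64 reference annotation.

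The test was edgeR 4.0.16 on the deposited counts, under R 4.3.3 (TMM factors 0.9897 to 1.012, expression filter by group, 1 quasi-likelihood fit over all 6 libraries with 3 residual degrees of freedom, 6171 loci). The common dispersion was 0.00217, a biological coefficient of variation of 4.66%. Each SE was taken as the size of the log2 fold change over the root of its F statistic. The fit was also run on simulated counts with 1 dispersion for all genes. That setting leaves out differences in spread between genes and between groups. FPKM were used for ratios within a library and for levels per length, beside CPM per kilobase of exon. The libraries of a group differed by more than counting noise (chi-square per degree of freedom 7.15, 3.01 and 5.88).

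Members, lists, motifs and the rule for named genes were chosen with earlier results of these data known. The rule gave values by library for called members past an absolute log2 of 0.5, for the channel genes TOM40, SAM50, TIM23, TIM22 and OXA1 and for MIA40 and ERV1. It gave MAS1, SSC1, TOM70 and any called gene past that size among the other import genes. Values by library for the other members and for MAS2, and the windows shown, were chosen after their values were seen. Alternatives were RLE size factors, library totals alone, library sizes without PSD1 and the GAL genes, DESeq2 1.42.0, limma-voom and limma-trend (limma 3.58.1) on log2(FPKM + 1) and log2(FPKM + 0.1), no filter, a minimum of 50 counts in 2 samples, only the groups compared, a replicate block, each library left out, and a minimum absolute log2 of 0.5 for a call. Ranking by CPM per kilobase was added after the data were seen.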

Additional observations from a re-analysis of the deposited data

How the results depend on the processing

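Of the 16 member calls in PSD1 overexpression against WT, 10 were kept under all 17 alternatives that refit the data: MIA40, ERV1, TIM13, TIM8, MIM1, SOM1, PAM17, SAM37, TIM23 and TIM44. In pdr3Δ against WT this held for 4 of 13 (MIA40, TIM23, TIM44 and OXA1), and in pdr3Δ against PSD1 overexpression for 0 of 5. Under some alternatives calls were gained: in PSD1 overexpression against WT by TIM21, MGR2 and HOT13, in pdr3Δ against PSD1 overexpression by PAM17, PAM18, ERV1 and MIM1, and in pdr3Δ against WT by TIM50, TIM18 and MIM1. No called member changed sign, and the median of all loci moved by at most 0.024. With a minimum absolute log2 of 0.5 the members called higher and lower were 1 and 0 in PSD1 overexpression against WT (10 and 6 without it), 0 and 0 in pdr3Δ against PSD1 overexpression (1 and 4), and 1 and 0 in pdr3Δ against WT (8 and 5). With single libraries left out the counts ran from 9 to 11 and 3 to 6 in the first, 0 to 2 and 0 to 7 in the second, and 3 to 8 and 3 to 5 in the third, with fewer samples in each fit. In pdr3Δ against PSD1 overexpression the higher and lower counts were 2 and 2 with library totals alone, 0 and 1 with DESeq2, 0 and 2 on log2(FPKM + 1), and 2 and 7 with only the 2 groups compared. The higher count was also 0 on log2(FPKM + 0.1). In pdr3Δ against WT DESeq2 called 4 higher. The left-out libraries and the fit of 2 groups change the number of samples. Except for the size minimum, which changes the call rule itself, the cause of the changed counts was not tested. The labels state no batch for samples with the same replicate number, though their sample numbers also run in sequence. Deviations from the group means correlated at 0.0407, 0.194 and -0.0203 between pairs of groups. With a replicate block 2 members were higher in pdr3Δ against PSD1 overexpression instead of 1, and the other counts stayed within 1.5 times. The block also gave a call to TIM21 in PSD1 overexpression against WT (edgeR adjusted p = 0.0423) and to TIM50 in pdr3Δ against WT (0.0485). Depth limits HOT13, SOM1 and MIM2 most among the members, with 133 to 239 counts per library and SE of 0.10 to 0.13.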
